A study of Mus musculus with 7 samples.

Results

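Neutrophil granule genes encode the proteases, peroxidase and antimicrobial proteins that neutrophils store in granules, and 8 of them were followed here: Mpo, Elane and Prtn3 of the primary granules, Lcn2, Camp and Mmp8 of the secondary granules, Mmp9 of the gelatinase granules, and Retnlg, a resistin-like secreted protein of mouse neutrophils. Every region assigned to one of these genes within 100 kb of a transcription start site (TSS) was taken, which gave 21 of 93611 regions and 7 of the 8 genes, since none was assigned to Elane. Mmp8 held 5 regions, Mmp9 and Mpo 4 each, Retnlg 3, Lcn2 and Prtn3 2 each, and Camp 1. The genes were chosen by name, with their RelA and RelB values in these libraries already known, so what follows describes those values and tests nothing.

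The series reads the DNA binding of 2 NF-kB subunits, RelA and RelB, by chromatin immunoprecipitation and sequencing (ChIP-seq) in bone marrow-derived dendritic cells (BMDCs) of C57BL/6 mice, grown from marrow in 20 ng/ml GM-CSF with 10 ng/ml IL-4. RelB was precipitated from cells of both genotypes, wild type (WT) and without RelB (RelBko), before stimulation (0 h) and after 1 h of lipopolysaccharide (LPS) at 10 ng/mL. RelA was precipitated from both genotypes at 1 h only, and 1 further library is WT input DNA, for which the labels give neither time nor treatment. Each of the 7 groups held 1 library, so no difference has a replicate check and no p-value is given. The labels give no age of the mice, do not say how the RelBko allele was made or whether mice were pooled, and their treatment text names a CpG oligonucleotide product beside LPS.

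Mature neutrophils store granule proteins that were made earlier, in waves that follow the promyelocyte, myelocyte and band stages. C/EBP factors and PU.1 are known to drive these genes in the marrow. Lcn2, which encodes the iron-siderophore binder lipocalin 2, and Mmp9 are in addition well known as inducible by inflammatory signals in macrophages and epithelia, where NF-kB is one of the factors involved. ChIP DNA holds no measure of expression, so the dendritic identity of the cultures and any neutrophils in them could not be checked against marker genes here. In bulk chromatin, weak binding in all cells and strong binding in a few cannot be told apart.

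The libraries held 13188833 to 35064429 reads. Of these, 37.2% to 42.4% fell in the regions for RelA and for WT RelB, against 4.62% and 7.41% for RelB in RelBko and 3.52% for input. Signal is given as RPKM, the reads in a region scaled by its length and by the reads of the library. Enrichment in a library meant a level of at least 2 RPKM that was also at least 2-fold above input. Of the 21 granule gene regions, 19 were enriched for RelA in WT, 19 for RelA in RelBko, 17 for RelB in WT at 1 h and 10 at 0 h. Over all regions the shares were 82.0%, 75.9%, 81.7% and 75.9%. In RelBko, RelB was enriched at 3 of the 21 regions at 0 h and at 1 at 1 h, beside 24.1% and 6.36% of all regions. For RelA in WT, the highest granule gene region reached 36.6 RPKM, and the median was 5.22 RPKM, beside 5.89 RPKM over all regions. These medians were 5.70 and 5.43 RPKM for RelA in RelBko. For RelB in WT they were 5.29 and 6.28 RPKM at 1 h, and 2.70 and 5.46 RPKM at 0 h.

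By annotation, 3 of the regions were promoters (of Lcn2, Camp and Mmp9), 6 lay in introns and 12 between genes. They were 308 to 434 bp long, and 14 lay within 10 kb of the TSS. The farthest, of Retnlg, lay 38809 bp away, so none was near the 100 kb limit. The Lcn2 and Camp promoters are shown because the difference between RelA and RelB was largest there. RefSeq (GRCm38.p6) gave a window from 250 bases before to 50 after the TSS for 7 of the 8 genes. Capitals mark matches, on either strand, to a loose kappaB pattern, GGGNNNNNCC, and to a C/EBP pattern, TTNNGCAA. The Lcn2 window is chr2:32387690-32387989 and that of Camp is chr9:109849407-109849706, both on the minus strand and printed 5′ to 3′ along the gene.
Lcn2: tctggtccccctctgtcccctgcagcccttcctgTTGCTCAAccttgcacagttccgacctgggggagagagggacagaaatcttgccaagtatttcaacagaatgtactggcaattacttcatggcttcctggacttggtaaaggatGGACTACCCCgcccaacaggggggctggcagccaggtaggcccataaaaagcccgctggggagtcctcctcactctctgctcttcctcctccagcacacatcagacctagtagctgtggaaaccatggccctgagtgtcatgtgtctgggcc
Camp: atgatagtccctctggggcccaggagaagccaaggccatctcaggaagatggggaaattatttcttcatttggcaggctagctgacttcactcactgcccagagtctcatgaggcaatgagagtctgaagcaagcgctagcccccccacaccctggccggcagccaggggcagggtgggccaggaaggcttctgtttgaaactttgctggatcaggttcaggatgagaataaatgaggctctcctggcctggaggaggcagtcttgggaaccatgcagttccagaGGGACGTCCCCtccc

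In the Lcn2 window the kappaB match lay 102 to 93 bases before the TSS and the C/EBP match 216 to 209 bases before it. By distance to the TSS, the deposited Lcn2 promoter region ran from 377 to 23 bases upstream and so covered both. The Camp window held 2 overlapping kappaB matches, both after the TSS (positions 36 to 46), whereas the deposited Camp region ran from 415 to 31 bases upstream and ended before them. The loose pattern was also found in the windows of Prtn3 and Mpo, and in 50.8% of the 32851 RefSeq promoter windows. None of the 7 windows held the stricter classical kappaB consensus (4.51% of all windows). A C/EBP match was present in the windows of Lcn2, Mmp8 and Retnlg (10.8% of all windows).

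A PU.1 pattern, GAGGAAGT, occurred in the windows of all 3 primary granule genes and of Mmp8, and in 3.20% of all windows. These matches are shown with their flanks, the match in capitals, because the genes share the letters.
Prtn3: actggaagGAGGAAGTgggaccca
Elane: gtcccaggGAGGAAGTagggctgt
Mpo: gagagagaGAGGAAGTtgcctttg
Mmp8: ctagcacaACTTCCTCattacaca
The Mmp8 match reads on the opposite strand. In Prtn3 it began 95 bases before the TSS and in Elane 85 bases before it, in Mpo 224 and in Mmp8 221 bases before it. No deposited region of these 4 genes overlapped the windows, so no value assigned to them covers these letters.

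**Figure D1:**
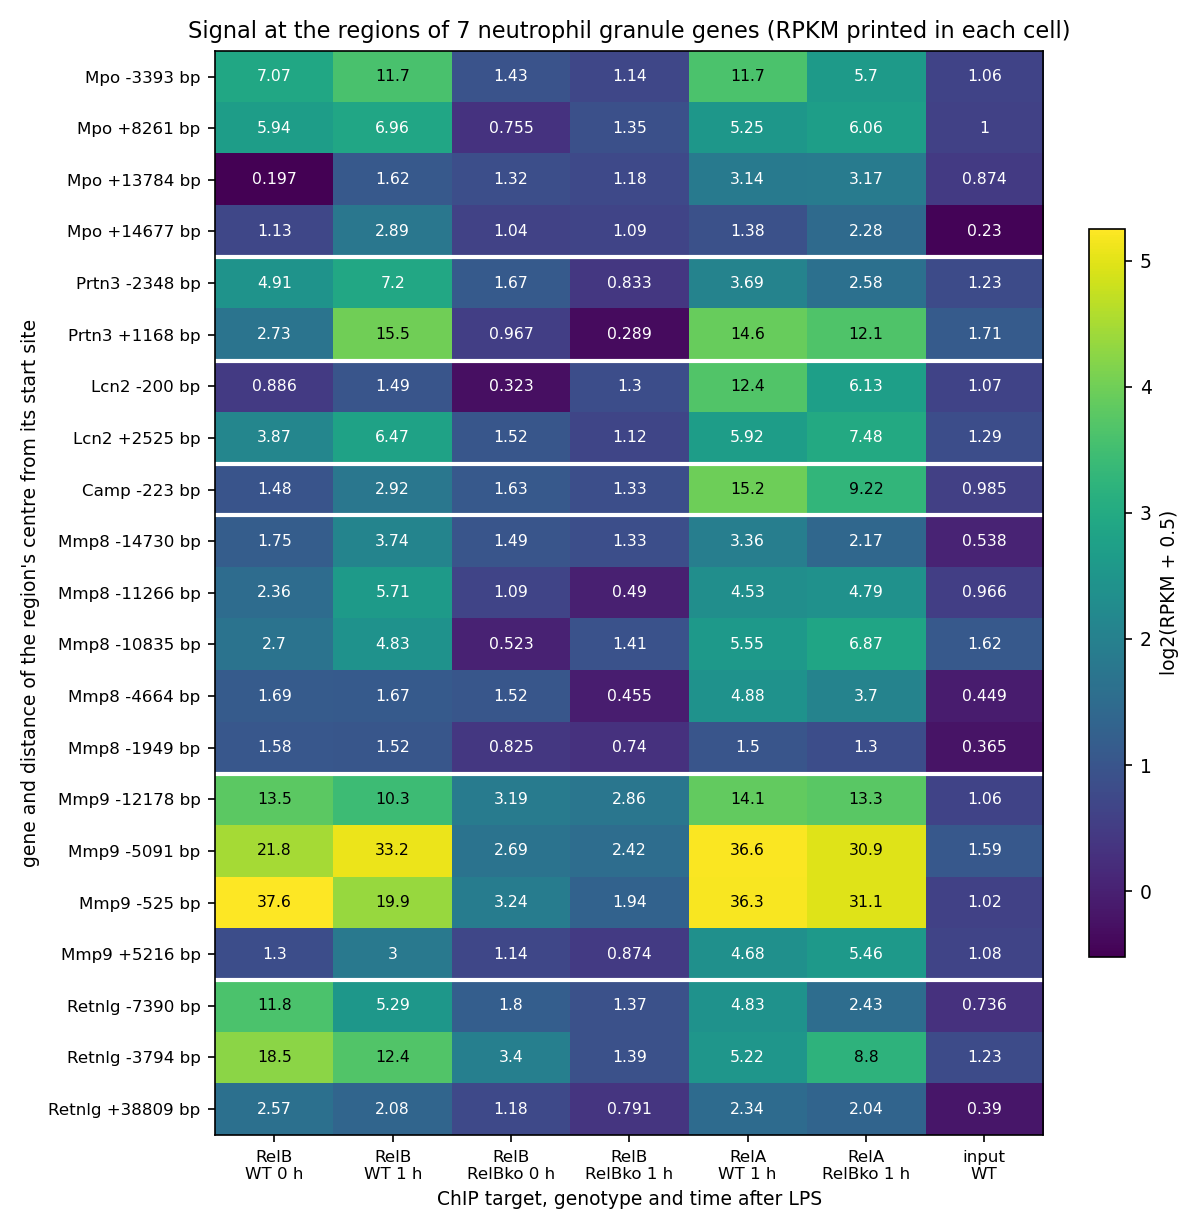
RPKM in each of the 7 libraries (columns) at the 21 regions of 7 genes (rows, named by gene and by the distance of the region's centre from the TSS), coloured by log2(RPKM + 0.5). The Lcn2 and Camp promoter rows are bright in the RelA columns alone, at 12.4 and 15.2 RPKM in WT, and 2 Mmp9 regions carry the highest values.

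RelA against RelB in WT cells at 1 h shows which granule gene regions held more of one subunit's signal than the other's. With 0.5 RPKM added to each value, RelA was at least 2-fold higher at 3 regions, the promoters of Lcn2 and Camp and a region upstream of Mmp8. RelB was at least 2-fold higher at 1, upstream of Retnlg. At the other compared regions the signals then lay within 2-fold of each other. Ratios are log2 ratios after adding 0.5 RPKM, a scale that understates changes of weak regions, and a ratio between 2 antibodies does not measure relative occupancy. Of the 21 regions, 20 were enriched for RelA or RelB and so were compared, with 3 higher for RelA (15.0%) and 1 lower (5.0%). Over all 85014 compared regions, 7.45% were higher and 7.21% lower. Over all 21 regions, with no filter, the median log2 ratio was 0.01, beside -0.15 over all 93611 regions. Scaling to a median ratio of 1, which moves every log2 ratio by 0.16, added the Mmp9 promoter to the regions higher for RelA, and over all regions moved the share of calls that were higher from 50.8% to 68.8%.

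Lcn2 had the largest difference. Its promoter region (mm9 chromosome 2, 32243283 to 32243636, centre 200 bp upstream of the TSS) held 12.4 RPKM of RelA in WT from 77 reads and 1.49 RPKM of RelB from 15 reads, with 1.07 RPKM in the input. RelB at 0 h was 0.886 RPKM in WT, and the RelBko RelB libraries held 0.323 RPKM at 0 h and 1.30 RPKM at 1 h. RelA in RelBko was 6.13 RPKM. Only the RelA libraries rose above the input by 2-fold here, and the 4 RelB libraries stood at 1.49 RPKM or less. The ratio of RelA to RelB was 8.30 (exact 95% interval 4.73 to 15.5, counting error only), and the log2 ratio 2.69 was the 119th highest of 85014 compared regions and the 6th highest of 10016 promoters. The second Lcn2 region, in an intron 2525 bp downstream of the TSS, did not share this difference, with 5.92 RPKM of RelA and 6.47 RPKM of RelB (ratio 0.914, interval 0.614 to 1.35).

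Camp encodes the antimicrobial peptide cathelicidin, and its only region is the promoter (chromosome 9, 109752001 to 109752385, centre 223 bp upstream). RelA there was 15.2 RPKM in WT from 103 reads and 9.22 RPKM in RelBko. WT RelB was 1.48 RPKM before LPS and 2.92 RPKM after 1 h, RelBko RelB 1.63 and 1.33 RPKM, and the input was 0.985 RPKM. Both RelA libraries stood above all 4 RelB libraries. The ratio of RelA to RelB in WT was 5.20 (3.47 to 7.995), and the log2 ratio of 2.20 ranked 546th of all compared regions and 38th of the promoters.

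Mmp8, neutrophil collagenase, lies in a cluster of matrix metalloproteinase genes, and all 5 of its regions were upstream. At the region 4664 bp upstream (chromosome 9, 7553597 to 7553934) RelA was 4.88 RPKM in WT and 3.70 RPKM in RelBko. RelB was 1.69 and 1.67 RPKM in WT at 0 h and 1 h, 1.52 and 0.455 RPKM in RelBko, and the input was 0.449 RPKM. RelA exceeded RelB with a ratio of 2.93 (1.54 to 5.77), from 29 and 16 reads. The other 4 Mmp8 regions, 14730, 11266, 10835 and 1949 bp upstream, had 1.503 to 5.55 RPKM of RelA and 1.52 to 5.71 RPKM of RelB, and each interval of their ratio included 1. The region nearest the TSS was enriched in no library.

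Retnlg was the one gene with a region called 2-fold higher for RelB, with 0.5 RPKM added. That region lies 3794 bp upstream (chromosome 16, 48868743 to 48869112) and held 5.22 RPKM of RelA in WT and 8.80 RPKM in RelBko. WT RelB was 18.5 RPKM before LPS and 12.4 RPKM after 1 h, RelBko RelB 3.40 and 1.39 RPKM, and the input was 1.23 RPKM. RelB in WT was the highest signal at both times, with a ratio of RelA to RelB of 0.423 (0.281 to 0.621). At the regions 7390 bp upstream and 38809 bp downstream, RelA was 4.83 and 2.34 RPKM and RelB 5.29 and 2.08 RPKM, both within counting error of each other.

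Mmp9, which encodes gelatinase B, carried the strongest regions of the 7 genes. The promoter region (chromosome 2, 164773009 to 164773379, centre 525 bp upstream) held 36.3 RPKM of RelA in WT and 31.1 RPKM in RelBko. WT RelB there was 37.6 RPKM before LPS and 19.9 RPKM after 1 h, against 3.24 and 1.94 RPKM in RelBko and 1.02 RPKM in the input. RelA exceeded RelB at 1 h with a ratio of 1.82 (1.51 to 2.21), short of 2-fold, but RelB at 0 h was as high as RelA at 1 h. The region 5091 bp upstream (164768438 to 164768819) had 36.6 RPKM of RelA and 33.2 RPKM of RelB in WT at 1 h, 21.8 RPKM of RelB at 0 h and 30.9 RPKM of RelA in RelBko. RelA and RelB did not differ beyond counting error there (ratio 1.10, 0.933 to 1.30). The other 2 regions, 12178 bp upstream and 5216 bp downstream, had 14.1 and 4.68 RPKM of RelA and 10.3 and 3.00 RPKM of RelB, and the interval of the ratio lay above 1 at the upstream one (1.02 to 1.83).

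The 2 primary granule genes with regions had RelA and RelB at about the same level at their strongest region. Mpo, myeloperoxidase, had 11.7 RPKM of RelA and 11.7 RPKM of RelB in WT at 1 h 3393 bp upstream of its TSS (chromosome 11, 87603714 to 87604072), a ratio of 1.00 (0.741 to 1.35). Prtn3, proteinase 3, had 14.6 RPKM of RelA and 15.5 RPKM of RelB in its gene 1168 bp downstream of the TSS (chromosome 10, 79343403 to 79343757), a ratio of 0.943 (0.720 to 1.23). Its region 2348 bp upstream had less RelA, 3.69 RPKM, than RelB, 7.20 RPKM (ratio 0.513, 0.294 to 0.860). The remaining 3 regions assigned to Mpo were annotated as intron, without naming the gene of the intron. They had 1.38 to 5.25 RPKM of RelA and 1.62 to 6.96 RPKM of RelB. At the one 13784 bp downstream the interval of the ratio lay above 1 (1.03 to 3.70). The one 14677 bp downstream had a ratio of 0.479 (0.188 to 1.08) from 8 and 27 reads, not called after 0.5 RPKM was added. Over the 21 regions, the interval lay above 1 at 6, below it at 2 and included it at 13, where it lay above 1 at 15.8% and below it at 25.4% of all regions. Elane, neutrophil elastase, lies between Prtn3 and Cfd in RefSeq's order, and the 2 regions assigned to Cfd held 1.81 and 4.21 RPKM of RelA and 2.35 and 2.94 RPKM of RelB.

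The 3 regions higher for RelA did not enter the comparison alike. The Lcn2 promoter and the Mmp8 region passed the filter on low values through RelA alone, so they had to lean to RelA, whereas Camp was enriched for both. Of the 20 compared regions, 16 passed through both libraries, 3 through RelA alone and 1 through RelB alone. Over all compared regions, 10.1% passed through RelA alone and 9.73% through RelB alone. Without the filter, the same 3 and 1 were called among all 21 regions. In each alternative setting these 3 stayed at or above 2-fold, with log2 ratios of 2.42 to 2.97 at the Lcn2 promoter, 2.05 to 2.35 at the Camp promoter and 1.14 to 1.496 at Mmp8, and the Retnlg region stayed at -1.23 to -1.01.

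**Figure D2:**
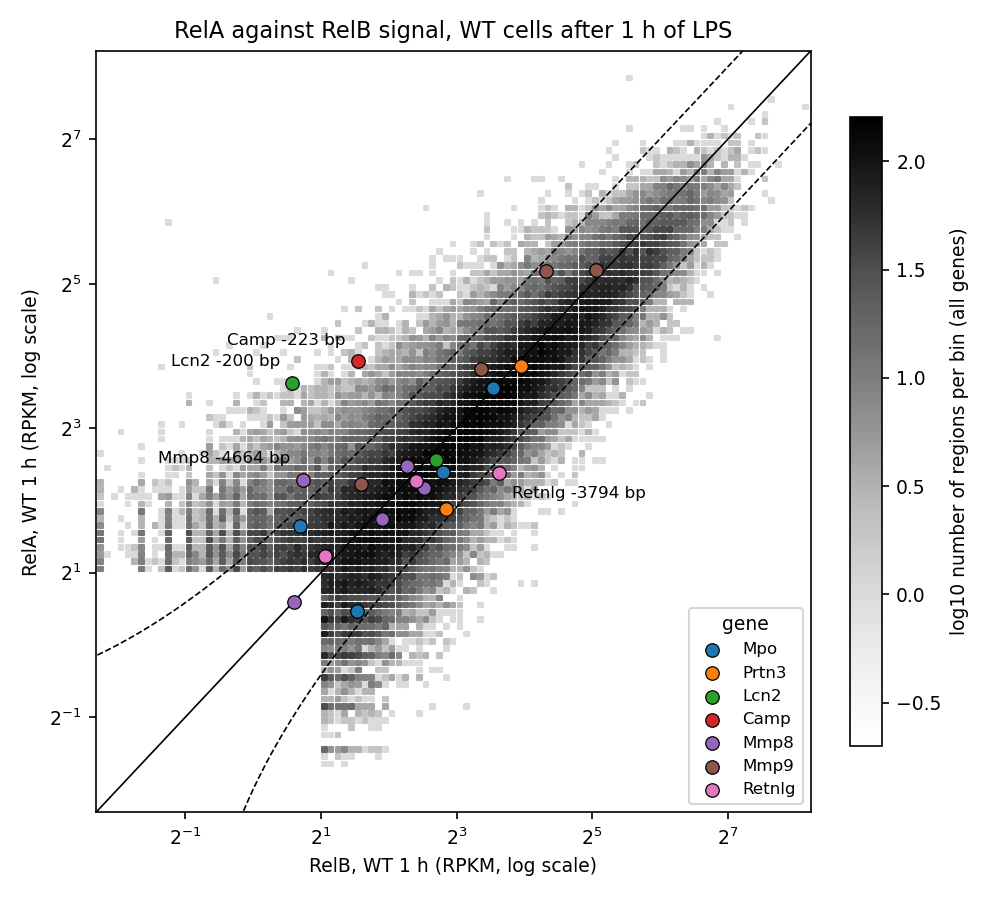
RelA (vertical) against RelB (horizontal) in WT cells after 1 h of LPS, both in RPKM on log scales, with all 85014 compared regions as grey bins and the 21 granule gene regions as coloured points. Dashed lines mark 2-fold with 0.5 RPKM added, and the named points, the Lcn2 and Camp promoters and an Mmp8 region above them and a Retnlg region below, lie outside them.

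Regions that the table assigns to other genes within 100 kb of the 7 start sites were counted as well. Around Lcn2, 4 of 21 compared neighbouring regions were higher for RelA and none lower, and around Prtn3 4 of 23 and none. Around Mmp9 the numbers were 3 of 18 and none, around Camp 1 of 13 and none, around Mpo 1 of 12 and none, around Mmp8 2 of 12 with 1 lower, and around Retnlg 0 of 14 with 2 lower. With these neighbours included, 18 of 133 compared regions (13.5%) were higher for RelA and 4 (3.01%) lower, beside 7.45% and 7.21% of all regions. How many of the 18 had passed the filter through RelA alone was not counted, and such regions could only lean to RelA.

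Other genes of the neutrophil granule program numbered 38 in 5 lists, of which 35 had a region (Ctsg, Olfm4 and Padi4 had none). Among their 192 compared regions, 25 (13.0%) were higher for RelA and 6 (3.13%) lower, against 7.45% and 7.21% of all regions. Of the 25, 16 had entered through RelA alone and could only lean to RelA, and 1 of the 6 through RelB alone. Over all regions, 4127 of 6336 higher ones entered through RelA alone and 2752 of 6129 lower ones through RelB alone. Among the 156 regions enriched for both, 9 were higher and 5 lower, beside 2209 and 3377 of 68177 over all regions. The other primary granule genes had 4 higher and 1 lower of 29 regions. Bpi, an antibacterial protein, had 64.3 RPKM of RelA and 46.5 RPKM of RelB at its promoter. Serpinb1a, an inhibitor of neutrophil proteases, had 27.8 and 59.0 RPKM at a region 11466 bp upstream of its TSS. The other secondary granule genes had 5 higher and 2 lower of 39. Cyba, a subunit of the NADPH oxidase, had 53.2 and 58.2 RPKM 114 bp upstream, and Itgb2l 44.1 and 62.8 RPKM 3246 bp downstream.

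The gelatinase granule and membrane genes had 4 higher and 1 lower of 24. Mmp25 had 82.8 RPKM of RelA and 89.0 RPKM of RelB 110 bp downstream. Fpr2, a formyl peptide receptor, had 56.0 and 40.4 RPKM 13157 bp downstream. Transcription factors of granule formation had 5 higher and 2 lower of 83. Runx1 had 61.4 and 57.3 RPKM 76366 bp downstream, and Spi1, which encodes PU.1, 54.7 and 72.7 RPKM 10152 bp upstream. The list of cytosolic proteins and receptors had 7 higher and none lower of 17. There S100a9, a calprotectin subunit, had 18.2 RPKM of RelA and 6.30 RPKM of RelB 8702 bp upstream. Cxcr2, a chemokine receptor, had 33.9 and 48.8 RPKM 10611 bp upstream. Those 7 regions belonged to Csf3r, S100a8, S100a9 and Ly6g, and all but that of S100a9 entered through RelA alone and could only lean to RelA. Another promoter with a like difference was that of Hp, haptoglobin, a plasma protein also held in neutrophil granules, at 5.38 RPKM of RelA and 1.14 RPKM of RelB (log2 1.84). The Hp promoter entered through RelA alone, as that of Lcn2 did, and could only lean to RelA. The promoter of Pglyrp1, a peptidoglycan recognition protein on the same list, differed the other way, at 4.74 and 12.3 RPKM (log2 -1.29). The genes of these last sentences, from Csf3r to Pglyrp1, were picked after their values were seen. For comparison, 10 dendritic cell genes had 4 higher and 4 lower of 123 regions, beside 7.45% and 7.21% of all regions. No difference between lists was tested.

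RelA in RelBko against WT at 1 h addresses the question in the title of the series, how RelA binding differs without RelB. With 0.5 RPKM added, none of the 20 compared granule gene regions differed by 2-fold in either direction, while over all 80885 compared regions 1.30% were higher and 4.94% lower in RelBko. The largest falls were close to 2-fold: Mpo at 3393 bp upstream went from 11.7 RPKM in WT to 5.70 RPKM in RelBko, the Lcn2 promoter from 12.4 to 6.13 RPKM, the Retnlg region 7390 bp upstream from 4.83 to 2.43 RPKM, and the Camp promoter from 15.2 to 9.22 RPKM. The intervals of these 4 ratios lay below 1, at 0.332 to 0.707 for Mpo, 0.342 to 0.714 for Lcn2, 0.287 to 0.871 for Retnlg and 0.449 to 0.815 for Camp. Without an added value the ratios were 0.486 for Mpo and 0.496 for Lcn2, just past 2-fold, and the log2 ratios after adding 0.5 RPKM were -0.98 and -0.96. With a pseudocount of 0.1 RPKM both passed 2-fold, and then 2 of the 20 regions were lower.

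One region moved the other way beyond counting error, the Retnlg region 3794 bp upstream, which went from 5.22 RPKM to 8.80 RPKM (ratio 1.68, 1.11 to 2.60). This was also the region called higher for RelB than RelA in WT. Prtn3 2348 bp upstream, likewise below 1 in that comparison, had 3.69 RPKM of RelA in WT and 2.58 RPKM without RelB (ratio 0.698, 0.352 to 1.38). The intervals of the remaining 16 of all 21 ratios included 1, and over all regions 13.6% lay below 1 and 7.99% above it. At the 2 strong Mmp9 regions RelA was 36.3 and 36.6 RPKM in WT and 31.1 and 30.9 RPKM in RelBko (ratios 0.855 and 0.845), and at Prtn3 1168 bp downstream 14.6 and 12.1 RPKM. The median log2 ratio over all 21 regions was -0.16, beside -0.07 over all 93611. Scaling on regions enriched in neither library moves each log2 ratio by 0.16 and the share of higher among all calls from 20.9% to 44.2%, and no granule gene region was called with it. The comparisons of RelA with RelB and of RelA between genotypes share the WT RelA library, so a high value in that library raises one ratio and lowers the other. RelB in WT at 1 h likewise enters the comparisons with RelA, with RelBko and with 0 h.

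**Figure D3:**
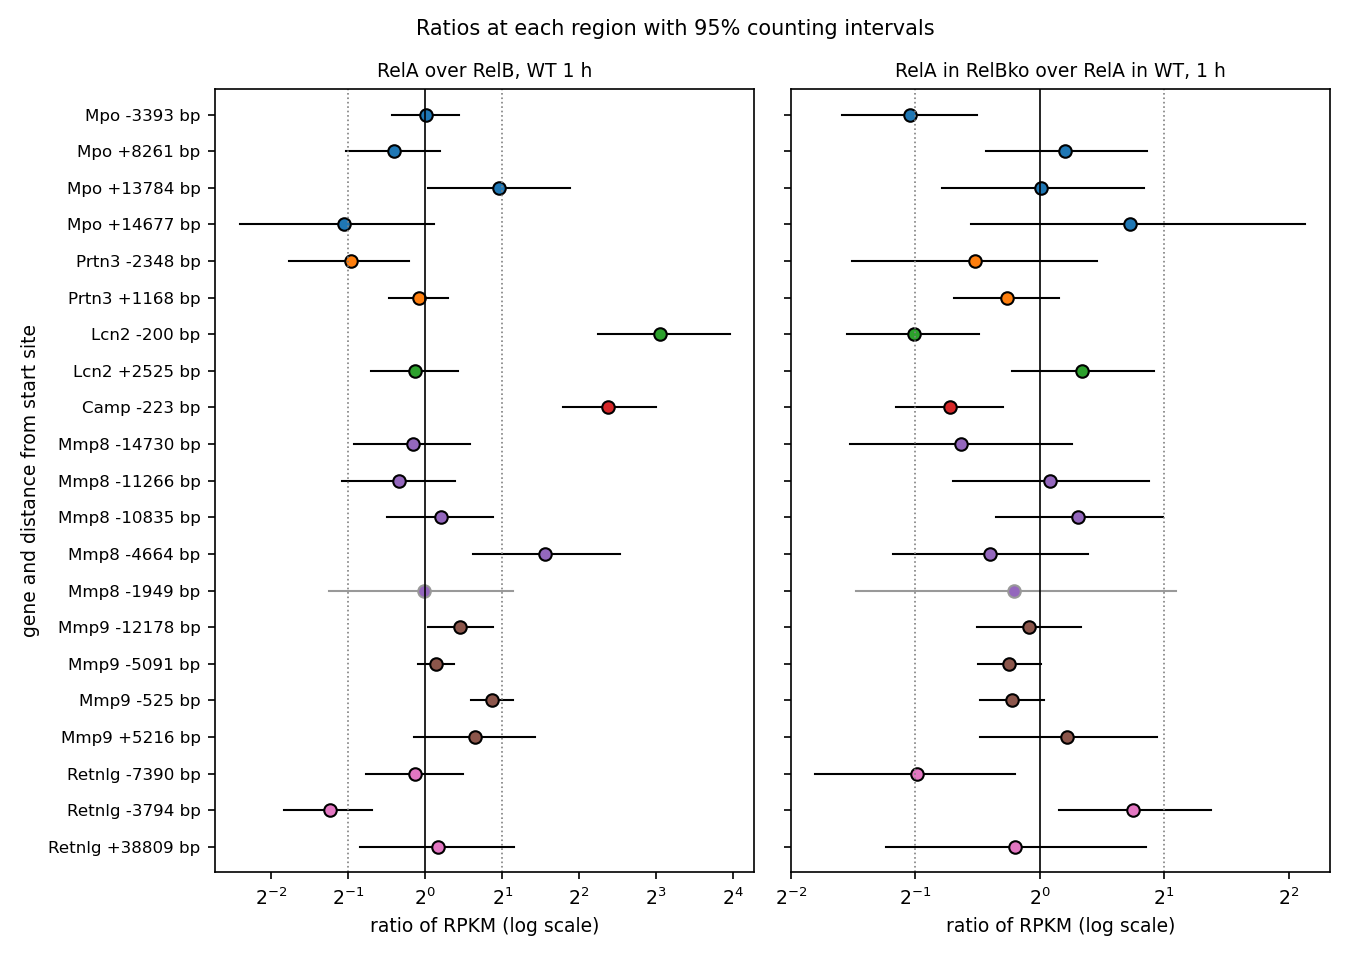
Ratio of RPKM at each of the 21 regions, for RelA over RelB in WT at 1 h (left) and for RelA in RelBko over WT (right), on log scales with exact 95% intervals for counting error. Dotted lines mark 2-fold without a pseudocount, and grey marks the Mmp8 region enriched in neither library. The Lcn2 and Camp promoters are the points farthest to the right on the left, at 8.30 and 5.20, and lie at 0.496 and 0.606 on the right.

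RelB in WT against RelBko shows how much of the RelB signal at these regions was above what the antibody gave without RelB. Of the 17 regions compared at 1 h, WT was higher at 15 and lower at none, where 95.9% of all compared regions were higher and 0.128% lower. Of the 17, 16 were enriched in the WT library alone and could only be higher there, as were 92.2% of all compared regions. The 2 exceptions were the Camp promoter, at 2.92 RPKM with RelB present and 1.33 RPKM without it (ratio 2.20, 1.05 to 5.01), and the distant Retnlg region, with 2.08 and 0.791 RPKM. The Lcn2 promoter was not compared, since RelB was not enriched in either genotype, with 1.49 and 1.30 RPKM (ratio 1.14, 0.469 to 2.96). The largest difference was at Prtn3 1168 bp downstream, 15.5 RPKM in WT and 0.289 RPKM in RelBko from only 2 reads, a ratio of 53.5 (14.6 to 446). At the Mmp9 regions 5091 and 525 bp upstream the ratios were 13.8 (8.58 to 23.5) and 10.3 (6.00 to 19.1), and at Mpo 3393 bp upstream 10.2 (5.01 to 24.2).

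With no filter, the median log2 ratio at 1 h was 1.63 over all 21 regions, beside 2.18 over all 93611. Scaled to a median ratio of 1, which moves each log2 ratio by -2.47, 2 regions (Prtn3 and Mmp9) were higher and 5 lower. The higher share of all calls went from 99.9% to 56.4%. Such scaling takes out the difference between genotypes that most regions share, so these calls are relative to the median region. They cannot show where RelB signal in WT was above or below that in RelBko. Of the 10 compared before LPS, WT was higher at 9 and lower at none, beside 86.0% and 0.504% of all. Of the 10, 7 were enriched in the WT library alone and could only be higher there, as were 68.6% of all compared regions. The 9 comprised 3 regions of Mmp9, 2 each of Mpo and Retnlg, and 1 each of Lcn2 and Prtn3. The Mmp9 promoter had the largest ratio among them, 11.6 (7.51 to 18.9). With a median ratio of 1 only this region stayed higher, again relative to the median region. The higher share of all calls went from 99.4% to 60.8%.

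RelB at 1 h against 0 h in WT shows how RelB signal differed after LPS. It was at least 2-fold higher at 3 of 17 compared regions and lower at 1, where 11.0% of all compared regions were higher and 1.68% lower. Of the 17, 7 were enriched at 1 h alone, the 3 higher ones among them, so their direction was fixed by the filter. That held for 12.3% of all compared regions. With no filter, the median log2 ratio was 0.60 over all 21 regions, beside 0.14 over all 93611. Among the compared regions, Prtn3 1168 bp downstream rose most, from 2.73 to 15.5 RPKM (34 and 156 reads, ratio 5.66, 3.89 to 8.46). Mmp8 11266 bp upstream went from 2.36 to 5.71 RPKM (ratio 2.42, 1.48 to 4.04) and Mpo 14677 bp downstream from 1.13 to 2.89 RPKM (ratio 2.56, 1.28 to 5.41). Scaling to a median ratio of 1, a move of -0.14, kept Prtn3 alone among these 3, and lowered the higher share of all calls from 86.8% to 73.1%. Mpo 13784 bp downstream, enriched at neither time and so not compared, had a larger ratio, 8.22 (2.44 to 43.2). Its values were 0.197 and 1.62 RPKM, from 3 and 20 reads.

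Retnlg had the fall, at 7390 bp upstream, from 11.8 to 5.29 RPKM (ratio 0.450, 0.331 to 0.605), and its region 3794 bp upstream went from 18.5 to 12.4 RPKM (ratio 0.668, 0.536 to 0.831). Mmp9 was mixed: the promoter had 37.6 and 19.9 RPKM (ratio 0.530, 0.448 to 0.624), while 5091 bp upstream the values were 21.8 and 33.2 RPKM (ratio 1.53, 1.30 to 1.79). The intervals of 12 of the 21 ratios lay above 1, those of 4 below it, all of Mmp9 and Retnlg, and 5 included it. Over all regions, 29.2% lay above 1 and 12.5% below it. At the Camp promoter the values were 1.48 and 2.92 RPKM (ratio 1.97, 1.09 to 3.64) and at the Lcn2 promoter 0.886 and 1.49 RPKM (1.68, 0.722 to 4.05).

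In RelBko, 3 of the 21 regions could be compared between times, 1 of them lower at 1 h and none higher, beside 44.1% lower and 0.863% higher of all compared regions. The 3 were regions of Mmp9 and Retnlg. The lower one, Retnlg 3794 bp upstream, went from 3.40 to 1.39 RPKM (22 and 10 reads, ratio 0.408, 0.172 to 0.897). Of the 3, 2 were enriched at 0 h alone, this region among them, so the filter fixed their direction. That held for 74.5% of all compared regions and for 9371 of the 10315 lower ones. With no filter, the median log2 ratio was -0.24 over all 21 regions, beside -0.43 over all 93611. The lower Retnlg region was not called with a pseudocount of 1 RPKM or with a median ratio of 1. The latter moves each log2 ratio by 0.93 and the higher share of all calls from 1.92% to 65.2%.

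**Figure D4:**
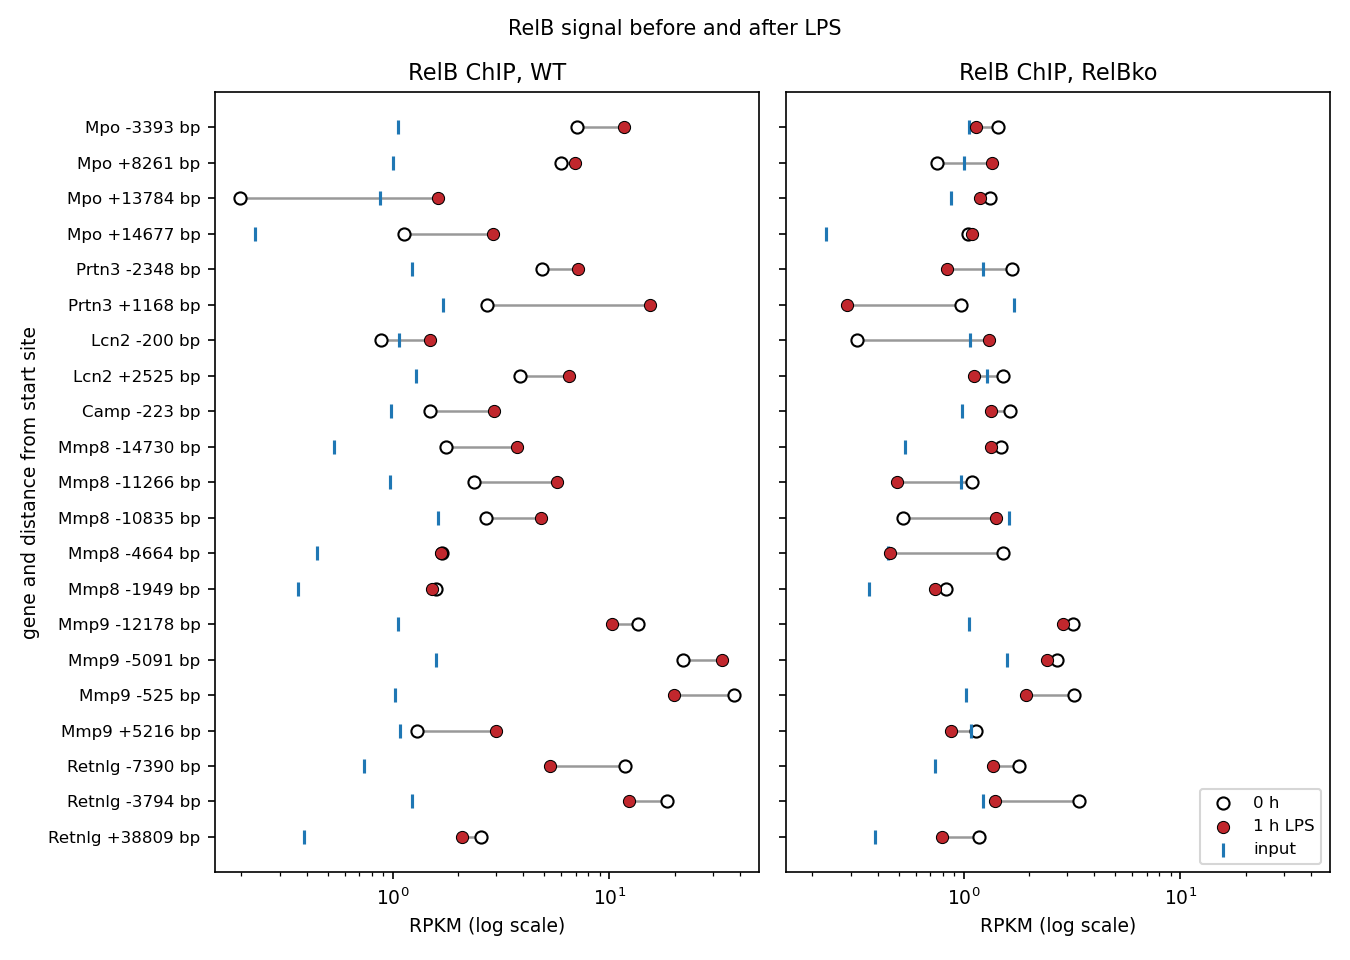
RelB signal in RPKM on a log scale at the 21 regions, before LPS (open circles) and after 1 h (filled circles), in WT (left) and RelBko (right), with the WT input as blue ticks. In WT the Prtn3 region 1168 bp downstream moves from 2.73 to 15.5 RPKM and the Mmp9 promoter from 37.6 to 19.9 RPKM, and in RelBko no region exceeds 3.40 RPKM.

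The genes with the most similar signal over the 7 libraries were sought by the root mean square difference in log2(RPKM + 0.5) between strongest regions, among 18208 genes. Nearest to Lcn2 was Snord104 (difference 0.27), whose region 44002 bp from the TSS held 12.0 RPKM of RelA in WT and 1.79 RPKM of RelB at 1 h. Nearest to Camp was Col8a2 (0.24), with 18.1 and 3.65 RPKM. For Prtn3 it was Ccar2 (0.32), where WT RelB was 4.28 RPKM before LPS and 15.1 RPKM after it. The nearest genes to Mmp8, Mmp9, Retnlg and Mpo were Mir7063, Mir1963, Mir1896 and I730028E13Rik, at 0.18, 0.13, 0.19 and 0.13.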

How the data were processed

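RelA and RelB binding in BMDCs was measured by ChIP-seq in 6 libraries with 1 input library. Per the file headers, the deposited table holds RPKM calculated by the authors for each library. HISAT2, HOMER, bedtools and the build mm9 are listed in the submitters' processing notes. What each tool did, its version and how the regions were defined: not given in the sources used here. Distances, classes and nearest genes are the authors' deposited annotation, and coordinates are mm9 counted from 1. Every RPKM value multiplied by region length was a whole number of reads (100% within 0.01 read), which gave reads and library totals; a read may have been added to each value before scaling, so 1 read taken off was tried. Computed here with Python 3.11.15, pandas 2.3.3 and scipy 1.17.1 were log2 ratios with a pseudocount of 0.5 RPKM, 2-fold calls among regions enriched in either library, and 95% intervals of read ratios by the exact Clopper-Pearson method, for counting error alone. The scripts were tested on simulated data. Members and lists were chosen with earlier results of these data known. The regions named are the strongest of each gene and those 2-fold apart between RelA and RelB, the others being given by range, with those beyond counting error in another comparison named after their values were seen; of each further list, the 2 genes of highest signal are named. Alternatives covered pseudocount, filter, scaling, read offset, enrichment and region assignment.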

Additional observations from a re-analysis of the deposited data

Results flagged for a closer look

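At 2 regions called in WT, RelB signal moved in opposite directions between 0 h and 1 h in the 2 genotypes, and the difference itself was not tested, with 1 library per group. At Prtn3 1168 bp downstream the log2 ratio was 2.30 in WT and -0.89 in RelBko, where the values were 0.967 and 0.289 RPKM from 6 and 2 reads. At Mmp8 11266 bp upstream it was 1.12 in WT and -0.69 in RelBko, from 6 and 3 reads. With a median ratio of 1 the RelBko values became 0.04 at Prtn3 and 0.24 at Mmp8, so that the directions were no longer opposite. The median behind this scaling was taken over compared regions, of which 74.5% were enriched at 0 h alone and could only be lower at 1 h. Scaling on regions enriched in neither library left the RelBko values at -0.63 at Prtn3 and -0.42 at Mmp8, still opposite to WT. Both RelBko ratios had intervals that included 1 (0.0295 to 1.67 and 0.0726 to 2.10).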

How the results depend on the processing

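Each count of granule gene regions was recomputed under 7 alternatives, with 2 more for RelA against RelB; 67 of 88 recomputed counts stayed within 1.5 times. With a pseudocount of 0.1 RPKM, 2 regions were lower for RelA than RelB, 2 were lower for RelA in RelBko, and 5 were higher for RelB at 1 h than at 0 h in WT. With 1 RPKM the last count was 1, and none was lower at 1 h in RelBko. Without the filter, RelB was lower in WT at 1 region at 0 h, and in RelBko 1 region was higher and 2 lower at 1 h. With a median ratio of 1, RelB was higher in WT at 2 regions and lower at 5 at 1 h, and higher at 1 at 0 h. The same scaling gave 1 higher and 2 lower between times in WT and 0 lower in RelBko. It turned the log2 ratio of RelB between genotypes at Mmp8 10835 bp upstream from 1.48 to -0.98. Between genotypes this scaling takes out the difference that most regions share, so its values there are relative to the median region. Scaling on regions enriched in neither library gave 9 higher in WT at 1 h, 1 higher and 2 lower between times in WT, and 0 lower in RelBko. With 4-fold enrichment 0 regions were compared in RelBko, so 0 were lower. With all regions within 100 kb, whatever gene, 18 were higher and 4 lower for RelA. The cause of these changes was not tested. No paired analysis was possible because each group holds 1 library. Weak regions limit precision: input held 1 to 8 reads per granule gene region.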
